A study of Mus musculus with 7899 samples.

Results

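Eukaryotic translation factors and aminoacyl-tRNA synthetases were followed in single β cells of pregnant mice. The members were all genes whose symbol starts with Eif1 to Eif6, Eef1 or Eef2, or is a tRNA synthetase name such as Aars or Aars2, with the eIF2α kinases left out. The rule picked 93 of 21767 genes, and used symbols and no measured value. By role the 93 genes are 8 factors of start-site selection and subunit joining, 11 subunits of eIF2 and its exchange factor or relatives, 14 eIF3 subunits, 13 cap-binding and helicase factors of eIF4, 3 eIF4E-binding proteins, 2 eIF5A genes, 8 elongation factors with their kinase, and 20 cytosolic and 14 mitochondrial tRNA synthetases. Ears2, Fars2 and Pars2 do not match the rule and stand in a separate list.

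The cells were sorted from islets of female C57BL/6J mice and profiled with the plate assay Smart-seq3xpress, which covers whole transcripts. Summing the cells of a replicate turned 7897 cells of 48 groups into 100 libraries in 7 tables. The time course held 9 days of gestation, with G3.5, G5.5 and G6.5 in its first part, then G8.5, G10.5 and G12.5, and G14.5, G16.5 and G18.5 in its last part, days 2, 7 and 14 after delivery, and mice that were not pregnant (G0). The days after delivery carried the suffix L or NL, taken here to mean with and without lactation, a reading that no label states. 3 tables held mice labelled Acss2 knockout, Stat3 knockout or p300 knockout beside wild-type mice of the same table (Acss2 WT, Stat3 WT, p300 WT), at G0 and G14.5, and for Acss2 and Stat3 also at G18.5. The alleles, any Cre driver and the age of the mice are not given in the labels. A high-fat diet table held the diet at G0, G14.5 and day 7 after delivery, the diet in Acss2 knockout and Acss2 WT mice at G0 and G14.5, and Acss2 WT mice on standard diet at G14.5. All other mice were on standard diet. In 2 culture tables, islets were kept for 4 days in medium with 20% human serum, labelled maternal or normal, with 5 µM A485, an inhibitor of the acetyltransferases p300 and CBP, or 20 µM nifuroxazide, an inhibitor of STAT3 signalling, or with the vehicle DMSO. There were 3 replicates at P14L, at G14.5 and G18.5 of the time course, and at G14.5 on high-fat diet, and 2 in all other groups.

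Translation starts when eIF2, loaded with GTP and the initiator tRNA, joins the small ribosomal subunit with eIF1, eIF1A, eIF3 and eIF5. The cap-binding complex of eIF4E, eIF4G and eIF4A brings the mRNA, and eIF4E-binding proteins hold eIF4E back until the kinase mTOR phosphorylates them. eIF2B recharges eIF2, and kinases that phosphorylate eIF2α block it, which lowers general translation while the factor ATF4 is made and switches on genes of amino acid supply, among them several tRNA synthetases. β cells translate insulin mRNA in bulk, and eIF2α phosphorylation in them is known from the kinase PERK, the product of Eif2ak3.

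Promoter windows (250 bases before to 50 after an annotated start) of 69 of the 93 genes could be matched in RefSeq, build GRCm38.p6. They are shown because tRNA synthetases among the results below carry a motif of the ATF4 pathway in them. The motif TGATGNAA, the core of the C/EBP-ATF response element, was searched on both strands and was found in 7 of the 69 genes (10.1%), against 4.51% of 27025 genes. The 7 genes were Aars, Eef2k, Eif2s3x, Gars, Iars, Tars and Yars. Its form TGATGCAA stood in 4 of them, Aars, Iars, Tars and Yars, against 1.03% of all genes. The E-box CACGTG, which reads the same on both strands and does not overlap the first motif here, was found in 16 of the 69 genes (23.2%), against 8.09% of all genes. A match is a run of letters, and no binding was measured in these libraries. In the windows printed here, each read 5′ to 3′ on the strand of its gene, the capitals mark TGATGNAA or its reverse complement TTNCATCA, and in Aars also CACGTG.
Iars, chr13:49682126-49682155 (+ strand): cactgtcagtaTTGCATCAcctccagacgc
Tars, chr15:11399655-11399684 (- strand): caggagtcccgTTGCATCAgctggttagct
Yars, chr4:129189895-129189924 (+ strand): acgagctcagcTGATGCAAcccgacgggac
Gars, chr6:55037960-55037989 (+ strand): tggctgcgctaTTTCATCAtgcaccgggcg
Aars, chr8:111033592-111033841 (+ strand), the 250 bases before the start: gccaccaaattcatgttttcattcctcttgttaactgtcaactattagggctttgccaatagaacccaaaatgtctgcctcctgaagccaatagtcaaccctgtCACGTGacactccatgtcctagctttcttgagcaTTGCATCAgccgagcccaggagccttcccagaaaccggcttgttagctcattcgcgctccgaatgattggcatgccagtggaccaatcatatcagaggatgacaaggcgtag
In Tars the capitals begin 15 bases and in Gars 30 bases before the annotated start, and in Aars further upstream. In Iars and Yars they begin 7 and 3 bases after it. Aars holds a further match, TTTCATCA, that begins 9 bases after its start and so lies outside the stretch printed.

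Library depth ran from 25623339 to 181405413 reads in the time course and from 13273435 to 154841243 reads in the other 6 tables. The least deep library of the time course, G0 replicate 2, was the sum of 35 cells, and it enters every comparison of a gestation stage with G0. Markers of β cells summed to 515310 to 653220 CPM (reads per gene scaled to library size) in the time course, almost all of it insulin, and none of the 8 markers was at 0 in the G0, G5.5, G8.5, G14.5 and G18.5 libraries. Ins1 and Ins2 took 41.5% of reads in the nifuroxazide table and 60.7% in the Stat3 table, the lowest and the highest of the 7. CPM are shares of a library, so a change in the total RNA of a cell cannot be seen in them. The targeted genes were lower in knockout libraries but not absent. Acss2 lay between 9.76 and 21.7 CPM in Acss2 knockout and 17.99 and 38.5 CPM in Acss2 WT libraries on standard diet. Ep300 lay between 11.9 and 20.4 CPM in p300 knockout and 24.2 and 37.2 CPM in p300 WT libraries. Stat3 lay between 49.4 and 73.7 CPM in Stat3 knockout and 65.9 and 90.2 CPM in Stat3 WT libraries. Over all stages the ranges of Acss2 and of Stat3 overlapped. Within a stage the genotypes overlapped for Stat3 at G0 only, with 66.1 and 49.4 CPM in knockout and 65.9 and 70.8 CPM in WT libraries. At G14.5 Stat3 had 67.4 and 73.7 CPM in knockout and 80.3 and 90.2 CPM in WT libraries. Whether the reads come from outside a deleted part cannot be told apart from cells that kept the gene.

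A pair of genes set single libraries apart. Eif2s3y, the Y-linked copy of an eIF2 subunit, had 0 reads in 73 of the 88 libraries that list it; the mice are labelled female. In G14.5 replicate 3 it had reads in 44 cells, at most 6 in a cell, and in the Acss2 WT standard-diet replicate 2 of the high-fat diet table it had reads in 18 cells, with 87 of its reads in 1 cell. The members called at G14.5 are given below also with each library left out, replicate 3 among them. Eif3j2, the second gene for the eIF3j subunit, lay between 0.155 and 1.35 CPM in the 35 libraries of the time course. In the Acss2 table it lay between 0.171 and 6.70 CPM, and replicates of the Acss2 WT G0 group were as far apart as 0.171 and 2.20 CPM. Eif3j1, its near copy, differed by at most 2.65-fold between the libraries of any table. How the authors' counting shared reads between the 2 copies is not stated.

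**Figure D1:**
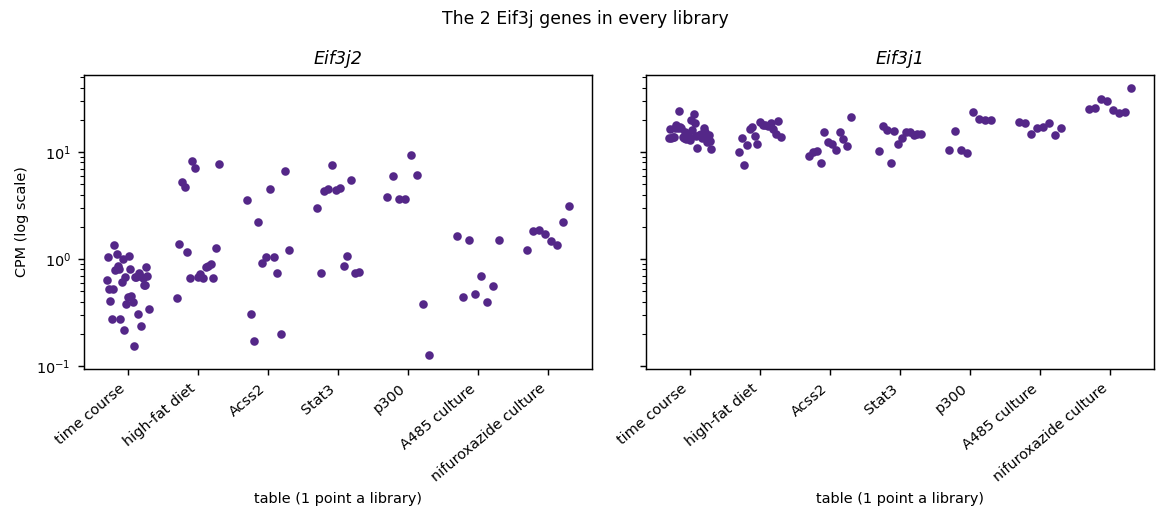
Level of Eif3j2 and Eif3j1 in CPM (log scale) in every library, by table; each point is 1 library. Eif3j2 stays between 0.155 and 1.35 CPM in the time course and reaches 9.39 CPM in the p300 table, while Eif3j1 keeps within 2.65-fold in any table.

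Nearly all members were measured well. At G0, 77 of the 93 genes had at least 10 CPM in both libraries, 89 had a read in every library of the time course, and 92 passed the filter on low counts there. Per length, the most abundant at G0 were Eef1a1, which carries aminoacyl-tRNA to the ribosome, at 529 RPKM (CPM per kilobase of gene length), Eif1, which guards start-codon choice, at 437 RPKM, and Eef2, the translocase, at 198 RPKM. Gars was the most abundant synthetase at 57.9 RPKM, followed by Sars at 37.3 RPKM and Nars at 36.8 RPKM. Among mitochondrial synthetases Rars2 led with 14.97 RPKM. At the other end Eef1a2, the muscle and neuron form of eEF1A, had 0 reads in 43 of 100 libraries, and the oocyte form Eif4e1b had 0 in 85 of 88. Together the members took 1.88%, 1.92% and 1.77% of the reads outside insulin in the G14.5 libraries, and 1.66% and 1.67% in those of G0.

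Part of the translation machinery was higher in gestation. Across the 10 stages from G0 to G18.5, 22 of 92 members differed by the F test of edgeR (adjusted p under 0.05 over all genes), which is 23.9% against 16.8% of all 15373 genes tested. The 12 with the lowest adjusted p were Eif3m, Eif4ebp1, Eif3e, Eif2s2, Eif5a, Eef1g, Hars, Nars, Eif4a1, Lars2, Eif2s1 and Eif3f, from 0.000531 for Eif3m to 0.0169 for Eif3f, and of these Lars2 alone lost its call without a single library, as given below. At G5.5, 7 members were higher than at G0 and 0 lower, against 1.57% of all genes called in either direction and 0.982% called higher. At G8.5, 7 were higher and 1 lower, against 5.79% of all genes called and 3.69% called higher. At G14.5, 16 were higher and 2 lower, which is 19.6% of members, against 10.1% of all genes called and 5.96% called higher. At G18.5, 7 were higher and 0 lower, against 4.77% of all genes called and 3.27% called higher. All 4 stages are set against the same 2 G0 libraries, so their calls are not independent of each other. Where groups are said below not to overlap, or to lie above or below each other, this describes their values only. It adds no support to a call, and the share of all genes without overlap was not computed. Without G0 replicate 1, the members called at G5.5, G8.5, G14.5 and G18.5 were 5, 5, 8 and 4, and without G0 replicate 2 they were 1, 1, 9 and 1. Without G5.5 replicate 1 or 2 the count there was 1 or 2, and without G8.5 replicate 1 or 2 it was 1 or 4. At G14.5 it was 12 without replicate 3, and at G18.5 it was 3 without replicate 1 and 2 without replicate 3. The median log2 fold change of the 92 members was 0.11 at G5.5, 0.20 at G8.5, 0.20 at G14.5 and 0.056 at G18.5, with that of all genes between 0 and 0.024. At G14.5, 66 of the 92 had a positive value, against 50.5% of all genes.

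**Figure D2:**
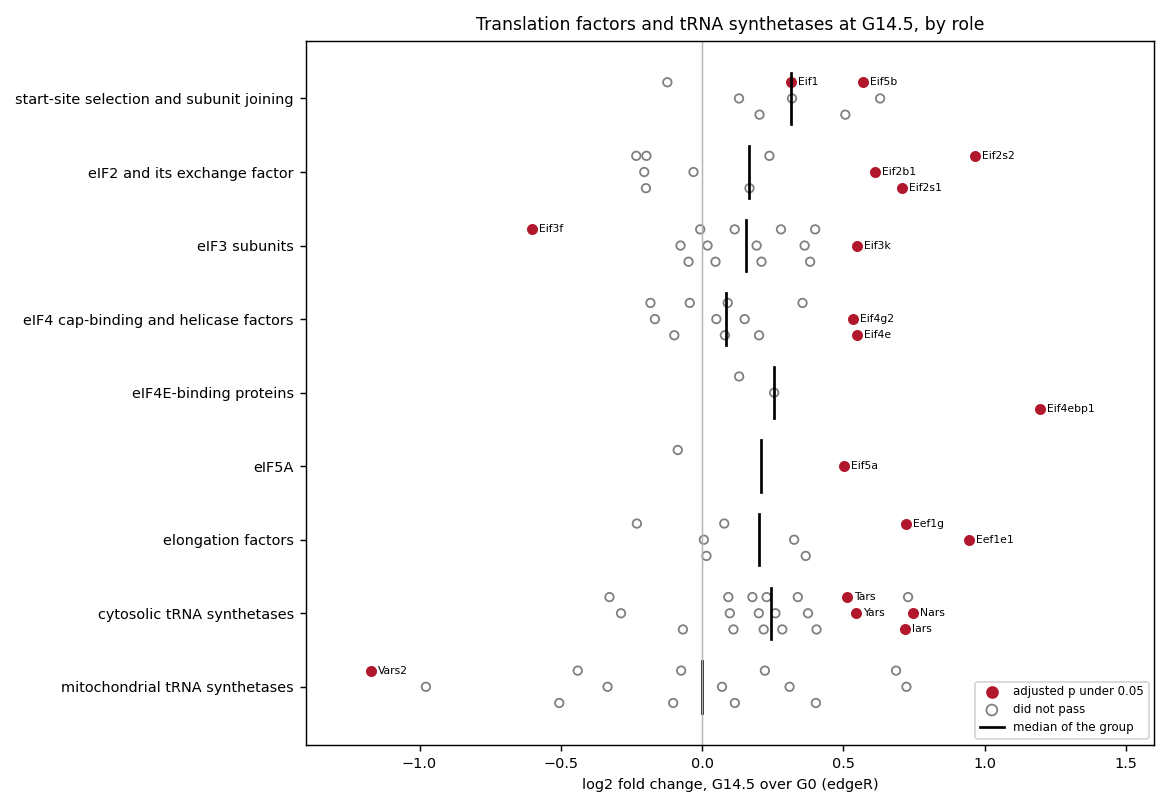
Log2 fold change of each member at G14.5 over G0, by role; filled red points passed (adjusted p under 0.05), open points did not, and the bar is the median of the role. Start-site factors have a median of 0.32 and cytosolic synthetases of 0.24, while mitochondrial synthetases have one of -0.002 with Vars2 lowest at -1.17; Eif2s3y (8.29, from 1 library) lies off the axis and is not drawn.

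The eIF4E-binding protein Eif4ebp1 (4E-BP1), an ATF4 target that restrains cap-dependent initiation, had the largest fold change among the members called at G5.5, at G14.5 and at G18.5. Its level was 61.4 and 64.3 CPM at G5.5, against 17.2 and 12.9 CPM at G0 (log2 fold change 2.06, SE 0.34, adjusted p = 0.00152). At G14.5 it was 35.6, 40.7 and 27.6 CPM (log2 fold change 1.20, SE 0.31, adjusted p = 0.0114) and at G18.5 46.4, 29.5 and 45.996 CPM (log2 fold change 1.43, SE 0.31, adjusted p = 0.00456). All libraries of these 3 stages lay above both G0 libraries, and G5.5 stood highest among them. The days between did not hold that level: it had 17.9 and 25.04 CPM at G6.5 and 25.6 and 35.4 CPM at G8.5. At G12.5 the replicates were far apart, with 69.9 and 32.4 CPM. The call at G5.5 held without any 1 of its 4 libraries, with adjusted p up to 0.0494. Without G0 replicate 2 those at G14.5 and G18.5 had adjusted p of 0.145 and 0.114. The other 2 binding proteins, Eif4ebp2 and Eif4ebp3, did not pass at any of the 4 stages.

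**Figure D3:**
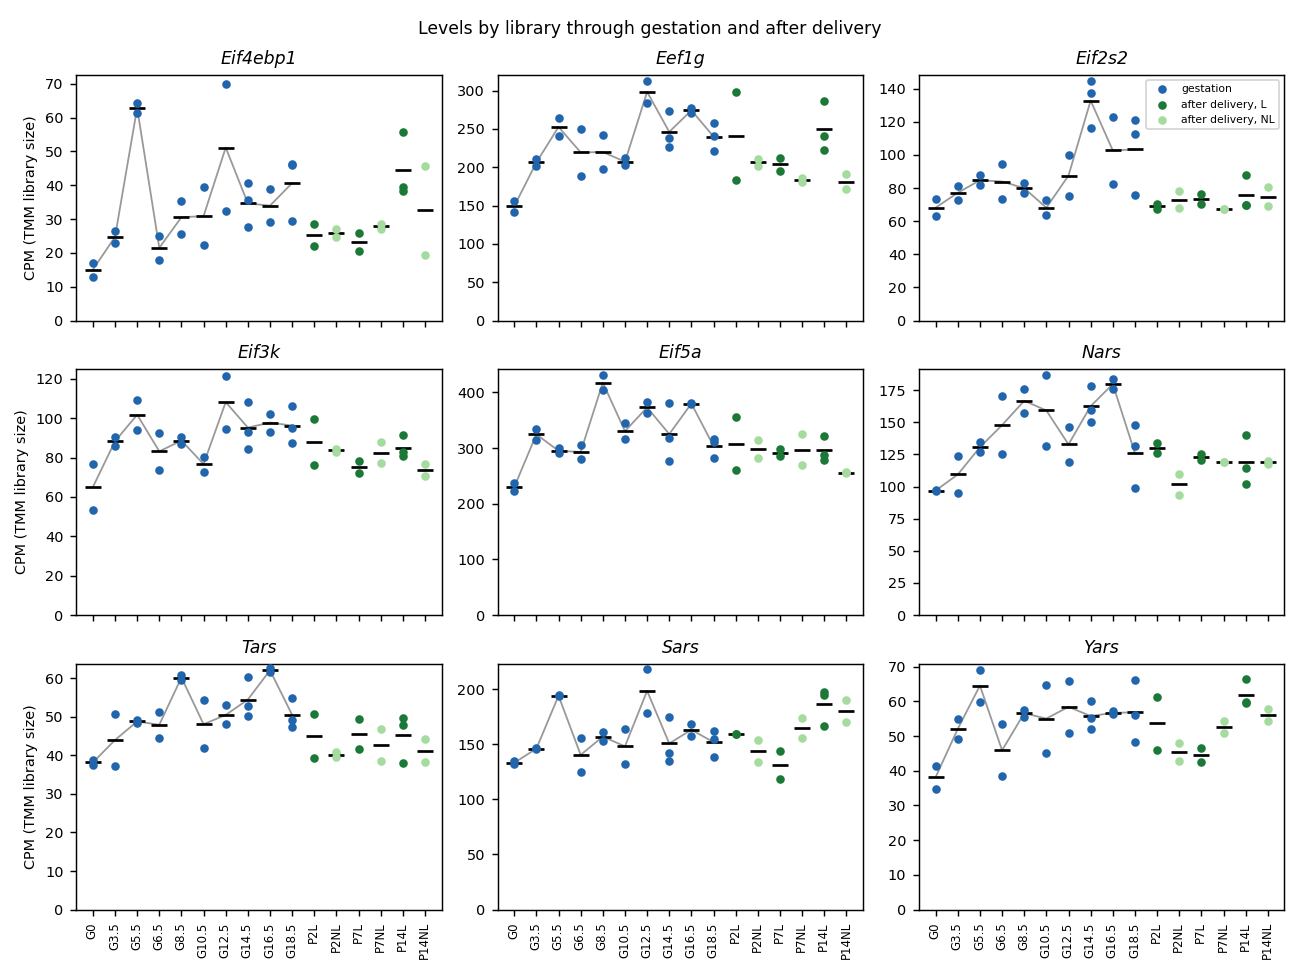
CPM by library for Eif4ebp1, Eef1g, Eif2s2, Eif3k, Eif5a, Nars, Tars, Sars and Yars in all 16 groups of the time course. Groups are in order of gestation and then day after delivery. Each point is 1 library, and the groups after delivery are coloured by L and NL. Eif4ebp1 has 61.4 and 64.3 CPM at G5.5 and 69.9 and 32.4 CPM at G12.5, where 1 library is its highest of all, and Eif2s2 has 144.5, 116.4 and 137.6 CPM at G14.5.

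Of the 11 genes of eIF2 and its exchange factor, 3 were called at G14.5, all higher. Eif2s2, the β subunit that binds eIF5, reached 144.5, 116.4 and 137.6 CPM at G14.5, against 63.04 and 73.3 CPM at G0 (log2 fold change 0.96, SE 0.18, adjusted p = 0.000503). Eif2s1, the α subunit that the stress kinases phosphorylate, had 39.3, 37.9 and 47.8 CPM at G14.5, against 28.1 and 22.8 CPM at G0 (log2 fold change 0.71, SE 0.17, adjusted p = 0.00671). Eif2b1, a regulatory subunit of the exchange factor, had 20.4, 25.95 and 21.4 CPM at G14.5 and 13.6 and 16.03 CPM at G0 (log2 fold change 0.61, SE 0.19, adjusted p = 0.0357). No library of G14.5 overlapped G0 for these 3 genes. Eif2s2 kept its call without any 1 library at G14.5, that of Eif2s1 was lost without G0 replicate 2 (adjusted p = 0.139), and that of Eif2b1 was lost without G0 replicate 1 (adjusted p = 0.268), G0 replicate 2 (0.0831), G14.5 replicate 2 (0.103) or G14.5 replicate 3 (0.0598). Eif2s2 also passed at G18.5, with 112.6, 75.96 and 121.4 CPM (log2 fold change 0.60, SE 0.18, adjusted p = 0.0409), but not without G18.5 replicate 1 or 3 or either G0 library, where adjusted p ran from 0.11 to 0.251. On the days before G14.5 it stayed lower, between 63.5 and 99.9 CPM from G3.5 to G12.5. The third subunit Eif2s3x, on the X chromosome, had 11.8, 14.7 and 19.6 CPM at G14.5 and 17.3 and 18.1 CPM at G0 and did not pass, and Eif2b2 to Eif2b5 did not pass at any of the 4 stages.

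eIF3 is the scaffold that holds the initiation complex on the small subunit. Of its 14 subunits, 2 were called at G5.5 and both were higher: Eif3k with 109.5 and 94.01 CPM at G5.5 and 76.8 and 53.1 CPM at G0 (log2 fold change 0.64, SE 0.16, adjusted p = 0.0369), and Eif3m with 138.6 and 151.4 CPM at G5.5 and 93.4 and 94.8 CPM at G0 (log2 fold change 0.62, SE 0.17, adjusted p = 0.047). Eif3k, the smallest subunit, was also called at G14.5, with 84.5, 108.1 and 93.1 CPM (log2 fold change 0.55, SE 0.15, adjusted p = 0.0169), and at G18.5, with 94.9, 87.5 and 106.3 CPM (log2 fold change 0.56, SE 0.15, adjusted p = 0.0233). The G0 replicates of Eif3k were themselves apart. Its call at G5.5 was lost without G0 replicate 2 (adjusted p = 0.509), G5.5 replicate 1 (0.268) or G5.5 replicate 2 (0.0889), that at G14.5 was lost without G0 replicate 2 (adjusted p = 0.376) or G14.5 replicate 2 (0.0579), and that at G18.5 was lost without G0 replicate 2 (adjusted p = 0.493) or G18.5 replicate 3 (0.116). Eif3m was high from G3.5 to G6.5, between 126.2 and 162.5 CPM, and lowest at G10.5, with 78.9 and 67.9 CPM. That course gave the lowest adjusted p of all members across the stages (0.000531), although the call at G5.5 alone was lost without any 1 of its 4 libraries (adjusted p 0.12 to 0.259). Eif3m shares 3.17% of its exon bases with Ccdc73, and the strand used in counting is not stated.

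Eif3f went the other way. This MPN-domain subunit had 69.8, 86.3 and 58.1 CPM at G14.5, against 114.5 and 102.2 CPM at G0 (log2 fold change -0.60, SE 0.15, adjusted p = 0.00693). All 3 libraries of G14.5 lay below both of G0, and the lowest was replicate 3. Without that replicate the adjusted p was 0.0614, and without G0 replicate 1 it was 0.0941. At G18.5 the level was 88.5, 115.6 and 107.2 CPM, which overlaps G0. Eif3e differed across the stages (F test, adjusted p = 0.0014), from 47.6 and 43.8 CPM at G3.5 through 48.96 and 41.98 CPM at G10.5 to 66.4 and 77.9 CPM at G16.5, and was not called at any of the 4 stages set against G0.

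Of 12 cap-binding and helicase factors tested, 3 were called at G8.5, all higher. Eif4a1, the RNA helicase, had 218 and 173.7 CPM at G8.5, against 134.1 and 121.4 CPM at G0 (log2 fold change 0.62, SE 0.17, adjusted p = 0.0242). Eif4g1, the scaffold that joins the cap to the ribosome, had 168.3 and 187.9 CPM at G8.5, against 113.9 and 126.6 CPM at G0 (log2 fold change 0.57, SE 0.15, adjusted p = 0.0245). Eif4e, the cap-binding protein itself, had 86.4 and 79.04 CPM at G8.5, against 53.7 and 58.02 CPM at G0 (log2 fold change 0.57, SE 0.17, adjusted p = 0.045). Both G8.5 libraries lay above both G0 libraries for each of the 3, but the calls of Eif4g1 and Eif4e were lost without any 1 library (adjusted p 0.0572 to 0.172 and 0.0924 to 0.227). That of Eif4a1 was lost without G0 replicate 1 (0.0591), G0 replicate 2 (0.188) or G8.5 replicate 1 (0.274). Hepatocyte markers were summed at 349.9 and 242.7 CPM in the G8.5 libraries, against 4.17 and 17.8 CPM at G0, with 2 of 6 called higher, and their part in the G8.5 results was not tested. At G14.5 Eif4e had 80.7, 70.6 and 93.8 CPM (log2 fold change 0.55, SE 0.16, adjusted p = 0.0229), and Eif4g2, a relative of eIF4G that works without eIF4E, had 339, 267 and 342 CPM, against 209 and 229 CPM at G0 (log2 fold change 0.53, SE 0.13, adjusted p = 0.00601). The call of Eif4e there was lost without G0 replicate 1 (adjusted p = 0.167), G0 replicate 2 (0.087) or G14.5 replicate 3 (0.127), and that of Eif4g2 was lost without G0 replicate 1 (adjusted p = 0.091). The other helicase genes of the group, Eif4a2 and Eif4a3, did not pass at any of the 4 stages.

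Eif5a, whose hypusine-bearing product helps the ribosome through difficult peptide bonds, had the lowest adjusted p of the members at G8.5. It reached 432 and 404 CPM at G8.5, against 223 and 237 CPM at G0 (log2 fold change 0.86, SE 0.14, adjusted p = 0.000193), and kept the call without any 1 of the 4 libraries. At G14.5 it had 276, 318 and 381 CPM (log2 fold change 0.50, SE 0.13, adjusted p = 0.00871); leaving out a library gave an adjusted p of 0.0796 without G14.5 replicate 3 and 0.095 without G0 replicate 1. From G3.5 on, all gestation libraries lay between 276 and 432 CPM, above both G0 libraries. Its scarce relative Eif5a2 fell at G8.5, to 3.45 and 2.87 CPM, against 6.65 and 9.12 CPM at G0 (log2 fold change -1.31, SE 0.36, adjusted p = 0.0256). It had a read in 36.1% of the cells of the time course, and the call was lost without G0 replicate 2 (0.21) or either G8.5 library (0.101 and 0.18).

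Among the start-site and joining factors, Eif5b, the GTPase that joins the large subunit, had 100.1, 69.5 and 94.3 CPM at G14.5, against 55.2 and 63.5 CPM at G0 (log2 fold change 0.57, SE 0.18, adjusted p = 0.0443). Eif5b shares 16.85% of its exon bases with Rev1 on the opposite strand, and the strand used in counting is not stated. Eif1 had 749.5, 693 and 710.2 CPM at G14.5 and 569 and 585 CPM at G0, a small difference that passed (log2 fold change 0.31, SE 0.095, adjusted p = 0.0297). Without the filter on low counts its adjusted p was 0.136, and it lost the call without either G0 library (0.181 and 0.133), without G14.5 replicate 1 (0.0969) or without replicate 3 (0.0618). The call of Eif5b was lost without G0 replicate 1 (adjusted p = 0.271), G0 replicate 2 (0.102), G14.5 replicate 1 (0.166) or G14.5 replicate 3 (0.135), and with RLE size factors (0.0524). The groups did not overlap for either gene. 7 of the 8 factors of this role had a positive log2 fold change at G14.5, with a median of 0.32.

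Of the elongation factors, Eef1g was called at each of the 4 stages, which share G0. This γ subunit of the eEF1B exchange complex had 156.6 and 141.8 CPM at G0, 265 and 241 CPM at G5.5, 242 and 197.95 CPM at G8.5, 238, 274 and 226 CPM at G14.5 and 241, 222 and 258 CPM at G18.5. Its log2 fold changes were 0.76, 0.56, 0.72 and 0.69 in that order, with adjusted p of 0.0141, 0.0351, 0.00166 and 0.0043. Both G0 libraries lay below all others of gestation, and the call at G14.5 held without any 1 of its 5 libraries. The call at G5.5 was lost without G0 replicate 2 (adjusted p = 0.189) or G5.5 replicate 1 (0.107), that at G8.5 was lost without G0 replicate 1 (adjusted p = 0.0729), G0 replicate 2 (0.239) or G8.5 replicate 1 (0.307), and that at G18.5 was lost without G0 replicate 2 (adjusted p = 0.106). Eef1e1, a scaffold protein of the multi-synthetase complex in spite of its name, had 19.7, 13.7 and 21.7 CPM at G14.5, against 9.01 and 10.1 CPM at G0 (log2 fold change 0.94, SE 0.24, adjusted p = 0.00962). At G18.5 it had 15.5, 15.9 and 19.1 CPM (log2 fold change 0.81, SE 0.24, adjusted p = 0.0411), a call that was lost without any 1 of the 5 libraries (adjusted p 0.058 to 0.217). The call at G14.5 was lost without G0 replicate 1 (adjusted p = 0.104), G0 replicate 2 (0.0518) or G14.5 replicate 3 (0.0552). Eef2 had 603, 699 and 559 CPM at G14.5 and 625 and 602 CPM at G0, which overlap, and its kinase Eef2k did not pass at any of the 4 stages. Eef1a1 differed across the stages by the F test (adjusted p = 0.0184), with a highest value of 1434 CPM at G12.5 and a lowest of 866 CPM at G10.5.

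Of the 20 cytosolic tRNA synthetases, which charge tRNAs with their amino acids, 4 were called at G14.5, all higher, and 17 had a positive log2 fold change there (median 0.24). Nars, for asparagine, had 159.4, 149.9 and 178.3 CPM at G14.5, against 96.5 and 97.3 CPM at G0 (log2 fold change 0.75, SE 0.17, adjusted p = 0.00321). At G8.5 it had 176.2 and 157.2 CPM (log2 fold change 0.78, SE 0.18, adjusted p = 0.00666). No library of either stage overlapped G0, the call at G14.5 held without any 1 library, and that at G8.5 was lost without G0 replicate 2 (0.0574) or G8.5 replicate 1 (0.0728). Tars, for threonine, had 60.9 and 59.5 CPM at G8.5, against 37.5 and 38.9 CPM at G0 (log2 fold change 0.66, SE 0.17, adjusted p = 0.015), and 52.9, 50.2 and 60.4 CPM at G14.5 (log2 fold change 0.51, SE 0.15, adjusted p = 0.0292). Its values sat close together in each group, yet at G8.5 the call was lost without any 1 library (adjusted p 0.0634 to 0.0887). At G14.5 it was lost without G0 replicate 1 (0.163), G0 replicate 2 (0.126) or G14.5 replicates 1 (0.0507) or 3 (0.127). Iars, for isoleucine, had 58.9, 65.4 and 64.6 CPM at G14.5 and 64.8, 53.1 and 64.6 CPM at G18.5, against 32.2 and 44.6 CPM at G0. Both differences passed (G14.5 log2 fold change 0.72, SE 0.18, adjusted p = 0.00939; G18.5 log2 fold change 0.67, SE 0.18, adjusted p = 0.0256), with G0 replicate 1 the lowest library. The call at G14.5 was lost without G0 replicate 1 (adjusted p = 0.206), and that at G18.5 was lost without G0 replicate 1 (adjusted p = 0.316), G18.5 replicate 1 (0.0887) or G18.5 replicate 3 (0.0906).

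At G5.5 the synthetases called were Yars, Aars and Sars. Yars, for tyrosine, had 69.2 and 59.9 CPM at G5.5, against 41.4 and 34.9 CPM at G0 (log2 fold change 0.76, SE 0.18, adjusted p = 0.0264). Aars, for alanine, had 119.4 and 107.9 CPM at G5.5, against 72.2 and 68.6 CPM at G0 (log2 fold change 0.69, SE 0.16, adjusted p = 0.027). Sars, for serine, had 193.6 and 194.7 CPM at G5.5, against 134.7 and 131.9 CPM at G0 (log2 fold change 0.54, SE 0.14, adjusted p = 0.047). G5.5 lay above G0 in all libraries of the 3, but the calls of Aars and Sars were lost without any 1 of the 4 (adjusted p 0.0635 to 0.224 and 0.113 to 0.289). That of Yars was lost without G0 replicate 2 (0.289) or either G5.5 library (0.183 and 0.0711). Yars passed again at G14.5 with 55.1, 60.1 and 52.1 CPM (log2 fold change 0.55, SE 0.17, adjusted p = 0.03) and at G18.5 with 66.2, 48.2 and 56.1 CPM (log2 fold change 0.57, SE 0.17, adjusted p = 0.0379). The call at G14.5 was lost without G0 replicate 1 (adjusted p = 0.0561), G0 replicate 2 (0.276), G14.5 replicate 1 (0.0593) or G14.5 replicate 2 (0.067), and that at G18.5 was lost without G0 replicate 1 (adjusted p = 0.0656), G0 replicate 2 (0.368), G18.5 replicate 1 (0.182) or G18.5 replicate 3 (0.082). Aars, Iars, Tars and Yars are the genes whose promoter windows hold TGATGCAA. Gars, which holds TGATGNAA, did not pass: it had 156.4, 159.1 and 132.7 CPM at G14.5 and 133.8 and 143.1 CPM at G0. Nars and Sars passed too, and neither is among the 7 genes in which TGATGNAA was found. Whether their windows were among the 69 matched is not given here. Markers of α cells were summed at 3974 and 4898 CPM at G5.5, against 1596 and 3160 CPM at G0, with 0 of 8 called. Of 6 ductal-cell markers 1 was higher at G5.5 and 0 lower (median log2 fold change 1.73), against 1.57% of all genes called. Of 8 β-cell markers 2 were higher and 0 lower. The part of these markers' cells in the members' results was not tested. Without cells in which islet hormones other than insulin took over 5% of reads, 7 members were called at G5.5, 6 of them among the 7 above; Eif3m was lost (0.0515). With RLE size factors Sars had an adjusted p of 0.0511 at G5.5.

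Hars, for histidine, followed another course: it differed across the stages (F test, adjusted p = 0.00387) with 20.7 and 10.7 CPM at G5.5, 37.2 and 26.3 CPM at G6.5 and 37.98 and 35.7 CPM at G16.5, against 17.2 and 22.5 CPM at G0. It overlaps its mitochondrial neighbour Hars2 over 7.97% of its exon bases, so some reads could belong to either. Of the 14 mitochondrial synthetases 1 was called at G14.5 and it was lower, and their median log2 fold change was -0.002. Vars2, for mitochondrial valine, had 5.56, 6.26 and 4.70 CPM at G14.5, against 12.49 and 12.3 CPM at G0 (log2 fold change -1.17, SE 0.27, adjusted p = 0.00489). All G14.5 libraries lay below both G0 libraries, and the call held without any 1 of the 5. Lars2, for mitochondrial leucine, passed the F test (adjusted p = 0.0103), but its replicates at G14.5 were far apart, at 95.9, 32.5 and 144.5 CPM, against 46.3 and 64.2 CPM at G0. Without G14.5 replicate 3, the library with reads of Y-linked genes, its adjusted p across the stages was 0.102. The part of that library in the result beyond this value was not tested.

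**Figure D4:**
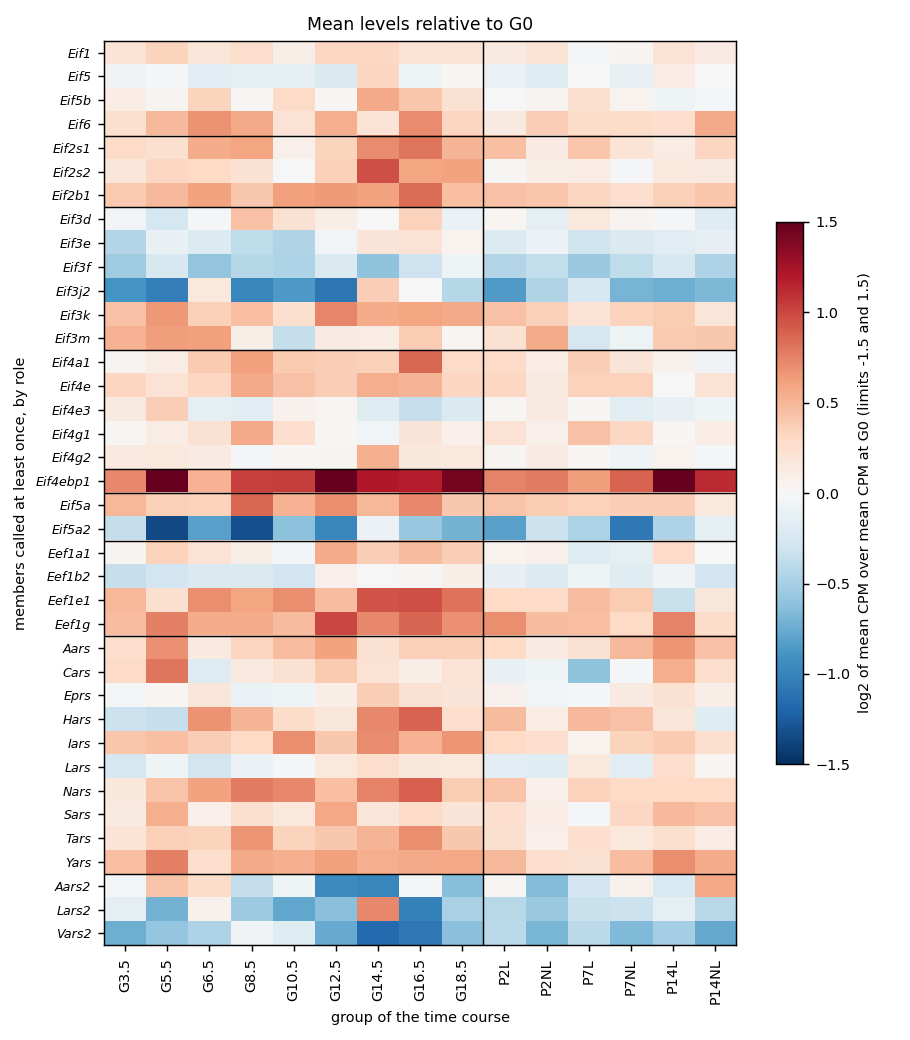
Mean CPM of each group of the time course relative to the mean at G0 (log2, colour limits -1.5 and 1.5), for the 38 members called in at least 1 of the comparisons, ordered by role; columns run through gestation and then the days after delivery. Eif4ebp1 is at or past the upper colour limit at G5.5, G12.5 and P14L, so the colours do not rank these groups, and Vars2 is blue at G14.5 (-1.17).

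After delivery no member passed in the comparisons made here. These were P2NL against G18.5, L against NL at days 7 and 14, and P14NL against G0. Other comparisons of the groups after delivery were not made, and P2L entered none. At day 2 without lactation, 0 of 92 members differed from G18.5 (1.3% of all genes called), with 14 at an unadjusted p under 0.05 and 1 called by DESeq2. Without G18.5 replicate 2, 2 were called. Eif3m came closest, with 135.6 and 141.3 CPM at P2NL, against 81.7, 108.7 and 97.9 CPM at G18.5 (log2 fold change 0.53, SE 0.15, adjusted p = 0.0804). Eif2s2 had 67.8 and 78.1 CPM at P2NL and 112.6, 75.96 and 121.4 CPM at G18.5, and did not pass (log2 fold change -0.50, SE 0.17, adjusted p = 0.214). Between L and NL, 0 of 92 differed at day 7 (0.839% of all genes, 5 at an unadjusted p under 0.05, 0 by DESeq2) and 0 at day 14 (0.722% of all genes, 8 and 0). Eif4ebp1 had 39.6, 38.3 and 55.9 CPM at P14L and 19.4 and 45.8 CPM at P14NL, which overlap. At P14NL, 0 members differed from G0 (0.28% of all genes, 14 and 0, and 1 called without P14NL replicate 1), and Eif4ebp1 was not called there (log2 fold change 1.11, SE 0.33, adjusted p = 0.165).

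The wild-type arms of the knockout tables and the high-fat diet table gave further sets of G14.5 and G0 libraries, fitted apart from the time course. In Acss2 WT mice, 4 members were higher and 1 lower at G14.5 than at G0, which is 5.56% of 90 tested, against 2.92% of all genes. Without G0 replicates 1 or 2 the count was 1 or 0, and without G14.5 replicates 1 or 2 it was 1 or 2. Eif4ebp1 had 46.8 and 35.9 CPM at G14.5 and 18.4 and 14.004 CPM at G0 (log2 fold change 1.35, SE 0.24, adjusted p = 0.00378). Tars had 56.9 and 48.9 CPM at G14.5 and 28.03 and 29.3 CPM at G0 (log2 fold change 0.88, SE 0.18, adjusted p = 0.0119). In both genes the stages did not overlap. The call of Eif4ebp1 was lost without G0 replicate 2 (adjusted p = 0.0536), and that of Tars was lost without G0 replicate 1 (adjusted p = 0.135), G0 replicate 2 (0.0666) or G14.5 replicate 1 (0.0829). The standard-diet Acss2 WT libraries at G14.5 in the high-fat diet table, which holds no standard-diet G0 and was normalized apart, had 27.9 and 15.1 CPM of Eif4ebp1. Nars had 135.5 and 124.95 CPM at G14.5 and 91.3 and 79.7 CPM at G0 (log2 fold change 0.61, SE 0.15, adjusted p = 0.0313). Eef1a1 had 1345 and 1208 CPM at G14.5 and 827 and 823 CPM at G0 (log2 fold change 0.63, SE 0.15, adjusted p = 0.0312). Eif4e3, a cap-binding relative of eIF4E, was lower, with 6.17 and 6.52 CPM at G14.5 and 12.6 and 12.7 CPM at G0 (log2 fold change -0.99, SE 0.22, adjusted p = 0.0183). It shares 14.8% of its exon bases with Gm20696 on the same strand. The calls of Nars, Eef1a1 and Eif4e3 were lost without any 1 of the 4 libraries, with adjusted p from 0.0527 to 0.256. Hepatocyte markers reached 427 CPM in a library of this table, and their part in these results was not tested.

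In p300 WT mice, 5 members were higher and 1 lower at G14.5, which is 6.67% of 90 tested, against 2.15% of all genes, and 3 were called without G14.5 replicate 1. Eif2s2 had 122.3 and 128.3 CPM at G14.5, against 60.6 and 61.4 CPM at G0 (log2 fold change 1.04, SE 0.16, adjusted p = 0.00551), and kept the call without any 1 library. Eprs, the fused synthetase for glutamate and proline, had 116.6 and 125.1 CPM at G14.5 and 73.6 and 60.5 CPM at G0 (log2 fold change 0.85, SE 0.17, adjusted p = 0.025). Lars, the cytosolic leucine enzyme that also senses leucine for mTOR, had 63.4 and 72.4 CPM at G14.5 and 33.1 and 43.98 CPM at G0 (log2 fold change 0.81, SE 0.19, adjusted p = 0.0487). Their groups did not overlap. The call of Eprs was lost without G0 replicate 2 (adjusted p = 0.0634), G14.5 replicate 1 (0.0578) or G14.5 replicate 2 (0.0633), and that of Lars was lost without G0 replicate 1 (adjusted p = 0.224), G14.5 replicate 1 (0.0806) or G14.5 replicate 2 (0.137). Lars2 had 113.4 and 81.3 CPM at G14.5 and 53.3 and 50.4 CPM at G0 (log2 fold change 0.91, SE 0.19, adjusted p = 0.0283), a call that was lost without G0 replicate 1 (adjusted p = 0.0724), G0 replicate 2 (0.062) or G14.5 replicate 1 (0.197). Eif4ebp1 had 31.2 and 61.7 CPM at G14.5 and 13.7 and 21.3 CPM at G0 (log2 fold change 1.40, SE 0.33, adjusted p = 0.0488), a call that was lost without G0 replicate 1 (adjusted p = 0.201) or G14.5 replicate 2 (0.255). Eif3j2 was lower, with 0.381 and 0.125 CPM at G14.5 and 3.61 and 3.66 CPM at G0 (log2 fold change -3.82, SE 0.67, adjusted p = 0.0115); given its spread between libraries elsewhere, described above, the pair of replicates behind each value limits this call. Markers of other cells moved in these libraries too. Of 7 α-cell markers tested, 3 were lower at G14.5 and 0 higher, with sums of 561 and 779.5 CPM at G14.5, against 1289 and 2696 CPM at G0. Both pancreatic polypeptide-cell markers were lower, with sums of 8.22 and 3.57 CPM at G14.5, against 439 and 196.3 CPM at G0. So were 1 of 4 δ-cell markers, with sums of 92.6 and 136.2 CPM at G14.5, against 372 and 361 CPM at G0, and 1 of 6 hepatocyte markers, while 0 of 8 β-cell markers were called. Their part in the members' results was not tested.

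In Stat3 WT mice 0 of 71 members were called (1.74% of all genes, 9 members at an unadjusted p under 0.05, 1 by DESeq2), and 1 was called without G0 replicate 1. Eif4ebp1 had 64.1 and 52.1 CPM at G14.5 and 29.3 and 7.85 CPM at G0 (log2 fold change 1.63, SE 0.43, adjusted p = 0.0672), with replicates at G0 far apart. On high-fat diet 3 of 91 members were higher at G14.5 than at G0 and 0 lower, which is 3.3%, against 1.95% of all genes. Leaving out G0 replicate 1 or 2 gave 1 or 0 calls, and leaving out G14.5 replicates 1, 2 or 3 gave 1, 5 or 0. Eif3d, the eIF3 subunit that can bind the cap, had 62.9, 47.3 and 75.7 CPM at G14.5 and 31.5 and 34.1 CPM at G0 (log2 fold change 0.92, SE 0.20, adjusted p = 0.0208). Tars had 65.5, 70.5 and 63.8 CPM at G14.5 and 36.6 and 35.1 CPM at G0 (log2 fold change 0.89, SE 0.20, adjusted p = 0.0215). Eif5a had 383, 347 and 414 CPM at G14.5 and 251 and 219 CPM at G0 (log2 fold change 0.70, SE 0.16, adjusted p = 0.0226). None of the 3 had overlapping groups. The call of Eif3d was lost without G0 replicate 1 (adjusted p = 0.142), G0 replicate 2 (0.207), G14.5 replicate 1 (0.056) or G14.5 replicate 3 (0.121), that of Tars was lost without G0 replicate 1 (adjusted p = 0.104), G0 replicate 2 (0.307) or G14.5 replicate 3 (0.0611), and that of Eif5a was lost without G0 replicate 1 (adjusted p = 0.077), G0 replicate 2 (0.46), G14.5 replicate 1 (0.0571) or G14.5 replicate 3 (0.113). Eif4ebp1 overlapped on this diet, with 38.3, 71.5 and 38.2 CPM at G14.5 and 37.7 and 22.3 CPM at G0.

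**Figure D5:**
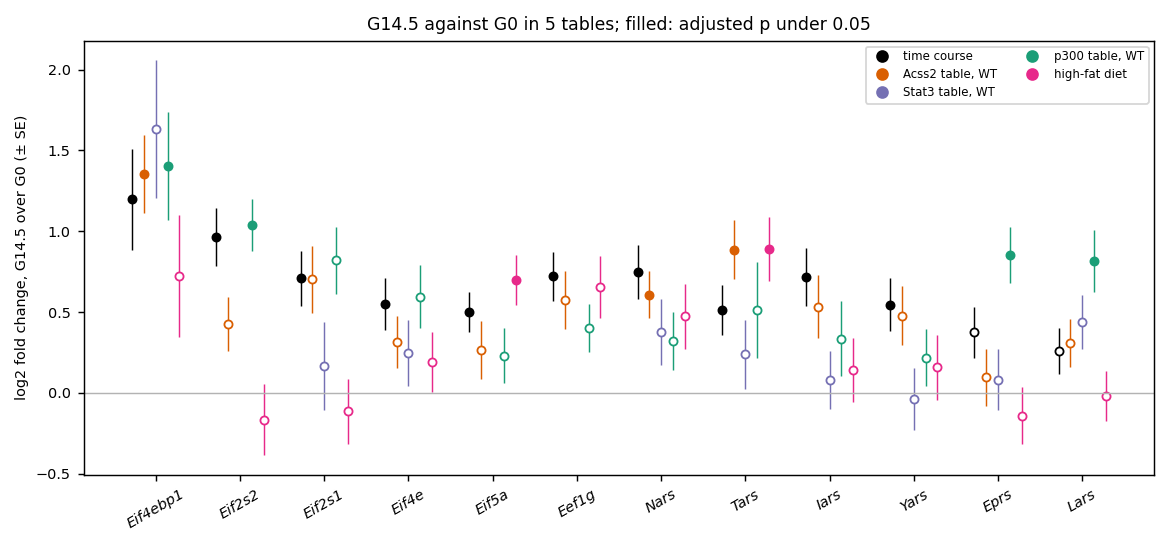
Log2 fold change of G14.5 over G0 with its SE for 12 members in 5 tables; filled points passed (adjusted p under 0.05). Eif2s2, Eef1g and Eif5a are missing from the Stat3 data and have no point there. Tars is filled in 3 of the tables, and Eif4ebp1 lies between 0.72 on high-fat diet and 1.63 in Stat3 WT mice.

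In the knockout comparisons made here, which were Acss2 and p300 at G0 and G14.5, Stat3 at G14.5 and Acss2 on high-fat diet at G14.5, 0 members were called. The knockouts at other stages were not compared. Acss2 makes acetyl-CoA from acetate, and Ep300 encodes p300, an acetyltransferase that uses it. At G0, 0 of 90 members differed between Acss2 knockout and Acss2 WT (0.00711% of all genes, 0 at an unadjusted p under 0.05, 0 by DESeq2). At G14.5 the count was again 0 (0.0213% of all genes, 14 and 1). Eif4ebp1 had 24.9 and 26.1 CPM in Acss2 knockout and 46.8 and 35.9 CPM in Acss2 WT libraries at G14.5, which do not overlap but did not pass (log2 fold change -0.70, SE 0.24, adjusted p = 0.364). The 27.9 and 15.1 CPM of the standard-diet Acss2 WT libraries in the high-fat diet table lie on either side of the knockout values. Cars, for cysteine, came closest, with 24.2 and 23.1 CPM in Acss2 knockout and 37.8 and 45.2 CPM in Acss2 WT libraries (log2 fold change -0.81, SE 0.19, adjusted p = 0.182). The test of the difference between the genotypes in the change from G0 called 0 members (0.0213% of all genes, 8 and 0); for Eif4ebp1 that difference was -1.03 on the log2 scale (adjusted p = 0.776). On high-fat diet, 0 of 91 members differed between Acss2 knockout and Acss2 WT at G14.5 (0.0638% of all genes, 14 and 0). Eif4ebp1 had 24.1 and 20.7 CPM in Acss2 knockout and 44.2 and 42.3 CPM in Acss2 WT libraries there (log2 fold change -0.95, SE 0.41, adjusted p = 0.539).

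Between p300 knockout and p300 WT, 0 of 90 members passed at G0 (1.54% of all genes, 25 at an unadjusted p under 0.05, 6 by DESeq2) and 0 at G14.5 (0% of all genes, 18 and 6). At G0, 1 was called without p300 knockout replicate 1 or p300 WT replicate 1, and at G14.5, 1 without knockout replicate 2 and 2 without WT replicate 1. At G0 Eif4a1 had 193.04 and 167.1 CPM in p300 knockout and 116.4 and 100.7 CPM in p300 WT libraries (log2 fold change 0.73, SE 0.18, adjusted p = 0.0611). Hars had 21.9 and 34.6 CPM in p300 knockout and 13.1 and 15.3 CPM in p300 WT libraries (log2 fold change 0.99, SE 0.25, adjusted p = 0.0647). Both lay higher in knockout libraries without overlap. At G14.5 Eif4ebp1 had 16.3 and 14.496 CPM in p300 knockout and 31.2 and 61.7 CPM in p300 WT libraries (log2 fold change -1.59, SE 0.33, adjusted p = 0.105). The difference between genotypes in the change from G0 called 0 members (0.0668% of all genes, 8 and 1), or 1 without the G14.5 p300 WT replicate 1. For Stat3 knockout against Stat3 WT at G14.5 the count was 0 of 71 (0.0098% of all genes, 7 and 1), and for the difference in the change from G0 it was 0 (0% of all genes, 6 and 0). Eif4ebp1 had 47.2 and 63.9 CPM in Stat3 knockout and 64.1 and 52.1 CPM in Stat3 WT libraries, which overlap. Between high-fat and standard diet in Acss2 WT mice at G14.5, 0 of 91 passed (0.213% of all genes, 19 and 5). Eif3f, with 99.1 and 117.2 CPM on high-fat and 63.6 and 58.7 CPM on standard diet, stood just outside the threshold (log2 fold change 0.82, SE 0.18, adjusted p = 0.0501). In that comparison standard-diet replicate 2 is the library with 87 reads of Eif2s3y in 1 cell. High-fat replicate 1 had 22 reads of Eif2s3y, spread over 11 cells.

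In cultured islets A485 gave few calls among the members, at a share close to that of all genes in normal serum and below it in maternal serum. In normal serum, 3 of 89 members were lower with A485 than with vehicle and 0 higher, which is 3.37%, against 2.57% of all genes, and 0 were called without either treated library. Eif5, the factor that makes eIF2 hydrolyse its GTP, had 132.7 and 132.2 CPM with A485, against 286 and 241 CPM with vehicle (log2 fold change -0.99, SE 0.14, adjusted p = 0.00541). Cars had 31.4 and 36.6 CPM with A485, against 52.1 and 61.8 CPM with vehicle (log2 fold change -0.75, SE 0.17, adjusted p = 0.0481). Eif1 had 564 and 594 CPM with A485, against 787 and 914 CPM with vehicle (log2 fold change -0.56, SE 0.12, adjusted p = 0.035). The treated libraries lay below both vehicle libraries for each. The call of Cars was lost without any 1 of the 4 libraries (adjusted p up to 0.284), that of Eif5 without either treated library (0.0527 and 0.0537), and that of Eif1 without either treated library (0.23 and 0.163) or vehicle replicate 2 (0.126). Without the hormone-rich cells Eif1 had an adjusted p of 0.0506. The median log2 fold change of the 89 members was -0.19, with 24 positive, against 47.9% positive among all genes. In maternal serum, 1 of 89 was lower with A485 and 0 higher (1.12%, against 3.3% of all genes), or 2 members without vehicle replicate 1. It was Eef1b2, the catalytic subunit of the eEF1B exchange factor, with 221 and 227 CPM with A485, against 337 and 334 CPM with vehicle (log2 fold change -0.58, SE 0.12, adjusted p = 0.0217). Without vehicle replicate 2 its adjusted p was 0.0609, and without the treated replicates 1 or 2 0.131 or 0.0911. Eif5 had 121.02 and 135.03 CPM with A485 and 158.6 and 161.6 CPM with vehicle in this serum. Of 8 β-cell markers 4 were lower with A485 in each serum and 0 higher. Their sums were 517930 and 539470 CPM with A485, against 657300 and 655030 CPM with vehicle in normal serum, and 406040 and 421440 CPM with A485, against 580000 and 500990 CPM with vehicle in maternal serum. Their part in the members' results was not tested.

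Maternal against normal serum with vehicle gave 1 call among 89 members in the A485 table (0.657% of all genes). Eif5 was lower, with 158.6 and 161.6 CPM in maternal and 286 and 241 CPM in normal serum (log2 fold change -0.72, SE 0.14, adjusted p = 0.0412), a call lost without either maternal serum library (0.0874 and 0.136) or normal serum replicate 1 (0.238). The same 2 normal serum libraries are the controls of A485 above. In the nifuroxazide table, 0 of 90 members differed between the sera (1.02% of all genes, 11 at an unadjusted p under 0.05, 3 by DESeq2), and Eif5 had 158.8 and 199.8 CPM in maternal and 163.9 and 183.5 CPM in normal serum. With nifuroxazide in normal serum 2 of 90 members were higher and 0 lower, which is 2.22%, against 1.99% of all genes, and 1 was called without vehicle replicate 1 or either treated library. Eprs had 205 and 195.6 CPM with nifuroxazide, against 99.7 and 104.7 CPM with vehicle (log2 fold change 0.97, SE 0.15, adjusted p = 0.00401), and kept the call without any 1 library. Sars had 378 and 389.5 CPM with nifuroxazide, against 223 and 241 CPM with vehicle (log2 fold change 0.73, SE 0.15, adjusted p = 0.0224), a call lost without any 1 library (adjusted p 0.068 to 0.167). Of 8 β-cell markers 5 were lower with nifuroxazide in normal serum, with sums of 431360 and 429430 CPM with nifuroxazide, against 552250 and 539070 CPM with vehicle. Of 6 α-cell markers tested 2 were lower, with sums of 987 and 1274 CPM with nifuroxazide, against 4467 and 2400 CPM with vehicle. Their part in the calls of Eprs and Sars was not tested. In maternal serum 0 of 90 passed (0.697% of all genes, 10 and 2). Eprs had 227 and 217 CPM with nifuroxazide and 147.2 and 143.1 CPM with vehicle there, without overlap (log2 fold change 0.61, SE 0.15, adjusted p = 0.0936). Whether the drug acts differently in the 2 sera was not tested.

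Targets of the integrated stress response, the pathway that links eIF2α phosphorylation to ATF4, were set beside the members as a list of 25 genes. In the F test across the stages 14 of the 25 differed, against 16.8% of all genes. At G5.5, 7 were higher than at G0 and 0 lower (median log2 fold change 0.67), against 1.57% of all genes called. At G14.5, 8 were higher and 0 lower (median 0.54), against 10.1% of all genes called. Phgdh, the first enzyme of serine synthesis, had 36.6 and 38.95 CPM at G5.5, against 9.36 and 7.58 CPM at G0 (log2 fold change 2.15, SE 0.26, adjusted p = 1.99e-05). Asns, which makes asparagine, had 134.4 and 121.9 CPM at G5.5, against 77.4 and 68.7 CPM at G0 (log2 fold change 0.81, SE 0.18, adjusted p = 0.0185). Nupr1, a stress regulator of chromatin, had 219, 258 and 193.4 CPM at G14.5, against 65.8 and 59.9 CPM at G0 (log2 fold change 1.83, SE 0.27, adjusted p = 2.57e-05). All of these stage libraries lay above both G0 libraries. The genes of the list were not followed in the fits with a library left out. At G8.5 the count was 3 higher and 0 lower (5.79% of all genes called), and at G18.5 it was 7 and 0 (4.77%). In Acss2 WT mice 5 of the list were higher at G14.5 and 0 lower (median log2 fold change 0.64), against 2.92% of all genes called. In the other tables fewer moved: 1 higher and 1 lower in p300 WT mice (median 0.45), 0 of 22 tested in Stat3 WT mice (median 0.43), and 1 higher and 0 lower on high-fat diet (median 0.22). Of all genes, 2.15%, 1.74% and 1.95% were called in these comparisons, in that order. At P14NL 3 of the list were higher than at G0 and 0 lower, against 0.28% of all genes called. Chac1, which degrades glutathione, had 22.1 and 20.9 CPM in Acss2 knockout and 89.4 and 67.1 CPM in Acss2 WT libraries at G14.5 (log2 fold change -1.87, SE 0.22, adjusted p = 0.00161), and was the 1 gene of the list called for that knockout. In the standard-diet Acss2 WT libraries of the high-fat diet table Chac1 had 36.5 and 26.8 CPM, and at G18.5 it had 34.9 and 56.1 CPM in Acss2 knockout and 49.9 and 46.01 CPM in Acss2 WT libraries, which overlap. With nifuroxazide 4 of the list were higher and 1 lower in normal serum, and 4 higher and 0 lower in maternal serum. Of all genes, 1.99% and 0.697% were called there. Ddit3 (CHOP) had 296 and 293 CPM with nifuroxazide, against 45.05 and 45.3 CPM with vehicle in normal serum (log2 fold change 2.71, SE 0.18, adjusted p = 4.24e-06). With A485 in normal serum 2 were lower and 0 higher, against 2.57% of all genes called. Ddit3 was among them, with 51.6 and 45.97 CPM with A485, against 106.6 and 133.7 CPM with vehicle (log2 fold change -1.30, SE 0.18, adjusted p = 0.00541).

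Further lists were counted in the same way. Of 21 kinases and regulators of translation tested, 4 were higher and 3 lower at G14.5, where 10.1% of all genes were called. Higher were Rheb, which switches mTOR on (0.53 on the log2 scale, adjusted p = 0.00509), Pdcd4, an inhibitor of eIF4A (0.63, 0.00979), Paip2, and Eif2ak3 with 24.04, 20.7 and 32.8 CPM at G14.5 and 12.3 and 15.8 CPM at G0 (log2 fold change 0.89, SE 0.26, adjusted p = 0.0261). Lower were Tsc1 (-0.71, 0.00919) and Tsc2 (-0.60, 0.021), which hold Rheb back, and the eIF4E kinase Mknk2 (-0.88, 0.0209). Among 13 genes of termination, recycling and synthetase scaffolds, Mcts1, a factor of ribosome recycling, was the 1 called at G14.5 (log2 fold change 0.73, SE 0.16, adjusted p = 0.0028). Of 9 mitochondrial translation factors 0 were called at G14.5, and at G8.5 1 was higher, Gfm1 (0.73, adjusted p = 0.0445). Of 12 immediate-early and heat-shock genes, which can respond to dissociation, 2 were higher at G5.5 and at G8.5 and 1 at G14.5 and at G18.5, with 0 lower at all 4 stages. Their part in the members' results was not tested. Of α-cell markers 1 was higher and 3 lower at G14.5, with sums of 1094, 968 and 1572 CPM at G14.5, against 1596 and 3160 CPM at G0. Of 6 ductal-cell markers 2 were higher and 0 lower there (median log2 fold change 4.94). Of 5 δ-cell markers 1 was lower and 0 higher, and of 8 β-cell markers 1 was higher and 0 lower. Of 6 hepatocyte markers 6 differed across the stages by the F test, and 0 were called at G14.5. The part of ductal cells and hepatocytes in the members' results was not tested. Without the hormone-rich cells 18 members were called at G14.5, 18 of them among the 18 above. The part of these cells in the results beyond that was not tested.

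In the 29 comparisons, 38 members were called at least once and 55 never. The share of all genes called at least once was not computed, so these counts are not a result about the members. Of eIF2 and its relatives, Eif2a, Eif2b2, Eif2b3, Eif2b4, Eif2b5, Eif2d, Eif2s3x and Eif2s3y were never called. The eIF3 subunits never called were Eif3a, Eif3b, Eif3c, Eif3g, Eif3h, Eif3i, Eif3j1 and Eif3l, and the start-site factors Eif1a, Eif1ad, Eif1ax and Eif1b. Of the eIF4 group and its binding proteins they were Eif4a2, Eif4a3, Eif4b, Eif4e1b, Eif4e2, Eif4enif1, Eif4g3 and Eif4h, with Eif4ebp2 and Eif4ebp3. The elongation factors Eef1a2, Eef1d, Eef2 and Eef2k passed nowhere either. Neither did the cytosolic synthetases Dars, Farsa, Farsb, Gars, Kars, Mars, Qars, Rars, Vars and Wars, nor, among others, the mitochondrial Cars2, Hars2, Iars2, Mars2, Nars2, Rars2, Sars2, Tars2, Wars2 and Yars2. A gene that did not pass is not shown to be unchanged, since 2 libraries a group leave wide errors.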

How the data were processed

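Per the file headers, the authors deposited 7 tables of read counts, with genes down and cells across, beside the length of each gene. The submitters' processing notes name featureCounts 2.0.1, Trimmomatic 0.39 and, among tools, Cell Ranger 3.1.0, with GRCm38 (mm10) as the build. Aligner, annotation, strand setting and the handling of duplicate reads were not given in the sources used here. Deposited normalized values and the 2 droplet samples were not used. The Stat3 table used here holds 12791 genes and 72 of the 93 members.

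The counts of all cells of a replicate were added up, which gave 100 libraries. Each table was fitted with edgeR 4.0.16 in R 4.3.3 (TMM, filterByExpr, glmQLFit, glmQLFTest), 1 model for all groups of a table. A gene was called at a Benjamini-Hochberg adjusted p under 0.05 over all genes tested. SE is that of the log2 fold change. CPM use TMM library sizes; sums of markers use plain ones; RPKM use the deposited length. Replicates are those labelled biological, 2 or 3 a group. The counts used here are of reads and not of molecular identifiers. Reads therefore cannot be taken as separate molecules, and depth gives counting error only. The scripts were tested on simulated data. Alternatives were DESeq2 1.42.0, RLE size factors, no filter on low counts, the replicate number as a block, cells with little of 5 other islet hormones, and each library left out in turn, where the full fit's dispersion trend was kept and the quasi-likelihood spread estimated anew.

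Members and lists were chosen with earlier results of these data known. Named in a comparison are all members called if at most 12, otherwise the 6 highest and 6 lowest by log2 fold change. In the F test the 12 lowest by adjusted p are named. From a list at most the 4 with the lowest adjusted p are named. The kinases and regulators of translation at G14.5 are an exception, and all those called are named. A fixed set (Eif4ebp1, Gars, Eef2 and others) is named where a value is needed, and further members called at G14.5 (Eif5b, Yars and Eif3k among them) and members that came closest to passing elsewhere were named after their values were seen. Results of 1 member are not reported here by name.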

Additional observations from a re-analysis of the deposited data

Results flagged for a closer look

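The Acss2 genotypes differed in 1 gene named here. Chac1, a target of the integrated stress response, had 22.1 and 20.9 CPM in Acss2 knockout libraries at G14.5 and 28.5 and 25.8 CPM at G0, against 89.4 and 67.1 CPM in Acss2 WT libraries at G14.5 and 25.2 and 23.9 CPM at G0. The difference between the genotypes in the change with gestation was -2.01 on the log2 scale (edgeR interaction test, adjusted p = 0.0254). On high-fat diet at G14.5 it had 26.4 and 35.8 CPM in Acss2 knockout and 19.6 and 66.9 CPM in Acss2 WT libraries, which overlap. The standard-diet Acss2 WT libraries at G14.5 in that table, normalized apart, had 36.5 and 26.8 CPM, and at G18.5 it had 34.9 and 56.1 CPM in Acss2 knockout and 49.9 and 46.01 CPM in Acss2 WT libraries, which also overlap. None of the 90 members passed the interaction test.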

How the results depend on the processing

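DESeq2 called more members: 43 across the stages, 12 at G5.5, 15 at G8.5, 1 for P2NL against G18.5, 1 for Acss2 knockout at G14.5, 8 for Acss2 WT gestation, 1 for Stat3 knockout, 1 for Stat3 WT gestation, 6 for p300 knockout at G0, 6 for p300 knockout at G14.5, 15 for p300 WT gestation, 1 for the p300 interaction, 9 for gestation on high-fat diet, 5 for high-fat against standard diet, 4 for serum in the A485 table, 11 for A485 in normal serum, 7 for A485 in maternal serum, 3 for serum in the nifuroxazide table, 8 for nifuroxazide in normal serum and 2 for nifuroxazide in maternal serum. Without the filter on low counts the numbers were 42 across the stages, 11 at G5.5, 15 at G8.5, 3 for P2NL against G18.5, 1 for P14NL against G0, 2 for Acss2 knockout at G14.5, 1 for Stat3 knockout, 2 for Stat3 WT gestation, 1 for the Stat3 interaction, 9 for p300 knockout at G0, 4 for p300 knockout at G14.5, 16 for p300 WT gestation, 2 for the p300 interaction, 10 for gestation on high-fat diet, 3 for Acss2 knockout on that diet, 4 for high-fat against standard diet, 3 for serum in the A485 table, 11 for A485 in normal serum, 4 for A485 in maternal serum, 5 for nifuroxazide in normal serum and 2 for nifuroxazide in maternal serum. In the other comparisons both counts stayed within 1.5 times. The share of all genes called was not computed under any alternative. The larger counts therefore cannot be read as results about the members. RLE size factors and the removal of cells rich in other islet hormones moved no count of calls by more than that. No called member changed its direction in any alternative. Outside left-out libraries and the block, 5 calls were lost: Eif3m at G5.5 (adjusted p = 0.0515) and Eif1 with A485 in normal serum (adjusted p = 0.0506) without hormone-rich cells, Sars at G5.5 (adjusted p = 0.0511) and Eif5b at G14.5 (adjusted p = 0.0524) with RLE, and Eif1 at G14.5 without the filter (adjusted p = 0.136). The cause was not tested.

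Replicate numbers did not pair the samples: deviations of same-numbered libraries from their group means correlated between -0.197 and 0.2 among the gestation stages and between -0.123 and 0.181 in the other comparisons of groups. With the replicate number as a block, the counts that moved were 3 at G18.5, 1 for p300 knockout at G0, 0 for gestation on high-fat diet, 2 for serum in the A485 table and 3 for A485 in maternal serum. Of the members' calls 63 held under the block and 20 were lost: Eif4g2 (adjusted p = 0.08), Eif3d (0.0536), Aars2 (0.0538), Aars (0.0706), Eif5a2 (0.0581) and Eif3k (0.0599) across the stages, Eif3m (0.0532) and Sars (0.0603) at G5.5, Tars (0.07), Eif5b (0.102), Eif4e (0.055) and Eif1 (0.0673) at G14.5, Eef1e1 (0.103), Yars (0.0596), Iars (0.0567) and Eif2s2 (0.114) at G18.5, Lars (0.0527) for p300 WT gestation, Eif3d (0.129), Tars (0.0679) and Eif5a (0.129) for gestation on high-fat diet.

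With 1 library left out at a time, the counts ran from 17 to 31 across the stages, 1 to 5 at G5.5, 1 to 5 at G8.5, 8 to 19 at G14.5, 1 to 6 at G18.5, 0 to 2 for P2NL against G18.5, 0 to 1 for P14NL against G0, 0 to 2 for Acss2 WT gestation, 0 to 1 for Stat3 WT gestation, 0 to 1 for p300 knockout at G0, 0 to 2 for p300 knockout at G14.5, 3 to 5 for p300 WT gestation, 0 to 1 for the p300 interaction, 0 to 5 for gestation on high-fat diet, 0 to 1 for serum in the A485 table, 0 to 3 for A485 in normal serum, 0 to 2 for A485 in maternal serum and 1 to 2 for nifuroxazide in normal serum. In each of the other comparisons 0 members were called throughout. Over all such fits 557 of the members' calls held and 199 were lost. Where a group kept 1 library, its spread was taken to be that of the other groups. Most calls rest on 2 libraries a group, and those of single stages rest on the same 2 G0 libraries, 1 of them of 35 cells, so a member not called may still differ.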

Other observations

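Members chosen after their values were seen give values that stand in no comparison above. Eif6, which keeps the ribosomal subunits apart, differed across the stages of gestation (F test of edgeR, adjusted p = 0.0261), with 44.1 and 34.8 CPM at G5.5 and 46.9 and 45.3 CPM at G16.5, against 31.2 and 25.1 CPM at G0. Aars2, for mitochondrial alanine, passed the same test (adjusted p = 0.0262) at a low level, with 2.40 and 2.26 CPM at G12.5 and 4.63 and 4.41 CPM at G0. At G18.5 in the Acss2 and Stat3 tables, stages not compared above, Eif4ebp1 had 35.6 and 50.1 CPM in Acss2 knockout and 35.97 and 29.96 CPM in Acss2 WT libraries, and 34.7 and 33.8 CPM in Stat3 knockout and 84.5 and 132.5 CPM in Stat3 WT libraries.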
